A study of Mus musculus with 6 samples.

Results

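The subunits of the vacuolar proton pump (V-ATPase) were examined in C2C12 cells, a mouse myoblast line that forms myotubes when serum is withdrawn. The 10 genes described here (Atp6v0b, Atp6v0c, Atp6v0d1, Atp6v1a, Atp6v1b2, Atp6v1c1, Atp6v1d, Atp6v1e1, Atp6v1h and Atp6ap1) were chosen by symbol among the 20945 gene names of the deposited table, and all 10 were found. Cells were kept in growth medium with 10% FBS (fetal bovine serum) or were differentiating in 2% HS (horse serum) or in 0.2% FBS. The differentiating cells were kept without or with added exosomes. The added exosomes, small vesicles prepared from FBS, matched the amount present in 10% FBS. Poly(A) RNA was sequenced as 6 libraries. The condition 0.2% FBS + exosome had 2 of them (replicates 1 and 2), and the growing cells, 2% HS, 2% HS + exosome and 0.2% FBS had 1 each. The labels do not say whether the 2 replicates were separate cultures, so the errors below measure only the spread between these samples. Each medium had 1 library without added exosomes, and all libraries came from 1 cell line.

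The V-ATPase is a rotary machine that moves protons into lysosomes, endosomes and secretory vesicles. Its V1 sector, on the cytosolic side, hydrolyses ATP in a ring of alternating A and B subunits, and the central stalk passes the rotation to a ring of proteolipid c subunits in the membrane-bound V0 sector, where protons cross. Lysosomal hydrolases work in the acid lumen that this pump makes, mTORC1 is recruited to the same membrane, and V-ATPase genes are known targets of the MiT/TFE transcription factors, which bind an E-box called the CLEAR motif. In muscle cells the lysosome takes part in autophagy and protein turnover.

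The promoters that hold the E-box are shown here because the MiT/TFE factors are known to bind such a motif in this gene family. RefSeq windows from 250 bases before to 50 bases after the annotated start (GRCm38.p6) were matched by symbol for 7 of the 10 genes (not for Atp6v1b2, Atp6v1c1 and Atp6v1h). The letters CACGTG, which read the same on both strands, occurred in 3 of the 7, and in each of these they were extended to TCACGTG on at least 1 strand. The 60 bases around the motif are given 5′ to 3′ on the minus strand, on which all 3 genes lie, with the motif in capitals. They come from chr4:117887334-117887393, chr8:105566061-105566120 and chr16:44139377-44139436, in the order printed.
Atp6v0b: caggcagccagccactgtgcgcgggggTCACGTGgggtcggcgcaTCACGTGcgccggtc
Atp6v0d1: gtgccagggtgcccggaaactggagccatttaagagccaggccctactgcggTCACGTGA
Atp6v1a: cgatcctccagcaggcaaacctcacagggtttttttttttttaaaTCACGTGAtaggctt
In Atp6v0b the motif occurred at 36 and 18 bases upstream of the RefSeq start, in Atp6v0d1 at 3 and in Atp6v1a at 131. These positions are counted to the C of CACGTG. The GENCODE annotation used for the gene spans below starts Atp6v1a farther upstream, at 44139705, so its printed stretch lies inside that span. The full palindrome TCACGTGA, which contains the shorter forms, was present in Atp6v0d1 and Atp6v1a. The windows of Atp6v0c, Atp6v1d, Atp6v1e1 and Atp6ap1 did not contain CACGTG. Of all 32817 windows, 7.15% held CACGTG, 3.76% held TCACGTG on either strand and 0.975% held TCACGTGA. Among the 8221 expressed genes with a window these shares were 12.2%, 7.40% and 2.42%. A match is a description of the sequence and not a measured binding site.

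Expression was deposited as FPKM, the fragments of a gene relative to transcript length and to the depth of the library, so that levels of different genes can be set side by side. The read depth estimated from the spacing of low values was between 33700000 and 39400000 reads, and even the lowest member value in a library stood for an estimated 1358 to 1485 reads per kilobase. Changes were taken as differences of log2(FPKM + 1), and the study's threshold of a log2 change above 1 or below −1 was kept. The fit with limma across the 10729 genes whose mean reached 1 FPKM takes its error from the 2 replicates of 0.2% FBS + exosome, with 1 residual degree of freedom. Libraries with exosomes in 0.2% FBS were shifted as a whole, with a median change of 0.14 over all genes tested against −0.04 in 2% HS. When the 75th percentile was made equal in all libraries (called scaling below), these medians went to −0.002 and −0.003. Of 9 muscle markers, 8 reached a mean of 1 FPKM and the ninth, Pax7, did not. Their summed level was 2825 FPKM in 10% FBS, 5287 in 2% HS, 5103 in 2% HS + exosome, 5319 in 0.2% FBS, and 2748 and 2230 in replicates 1 and 2 of 0.2% FBS + exosome. The muscle label thus held in every library, and the exosome libraries in 0.2% FBS had marker sums like that of the growing cells. In these bulk samples fewer cells of a type and less RNA per cell cannot be told apart.

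All 10 subunits were well expressed in every library, and among these 10 the proteolipids were the most abundant. Atp6v0c ranked first and Atp6v0b second in all 6 libraries, with mean levels of 333 and 266 FPKM. Atp6ap1 (143 FPKM) and Atp6v1e1 (117) followed and exchanged places in 0.2% FBS. Atp6v1d (82.7 FPKM), Atp6v0d1 (68.2) and Atp6v1a (63.9) formed the middle of the order, which changed between libraries. Atp6v1c1 (52.0 FPKM), Atp6v1b2 (44.2) and Atp6v1h (41.4) had the lowest means, and their order also changed between libraries. In 0.2% FBS Atp6v1a ranked ninth. Within 1 gene the highest library exceeded the lowest by 1.21-fold (Atp6v1c1) to 2.12-fold (Atp6v1a).

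**Figure D1:**
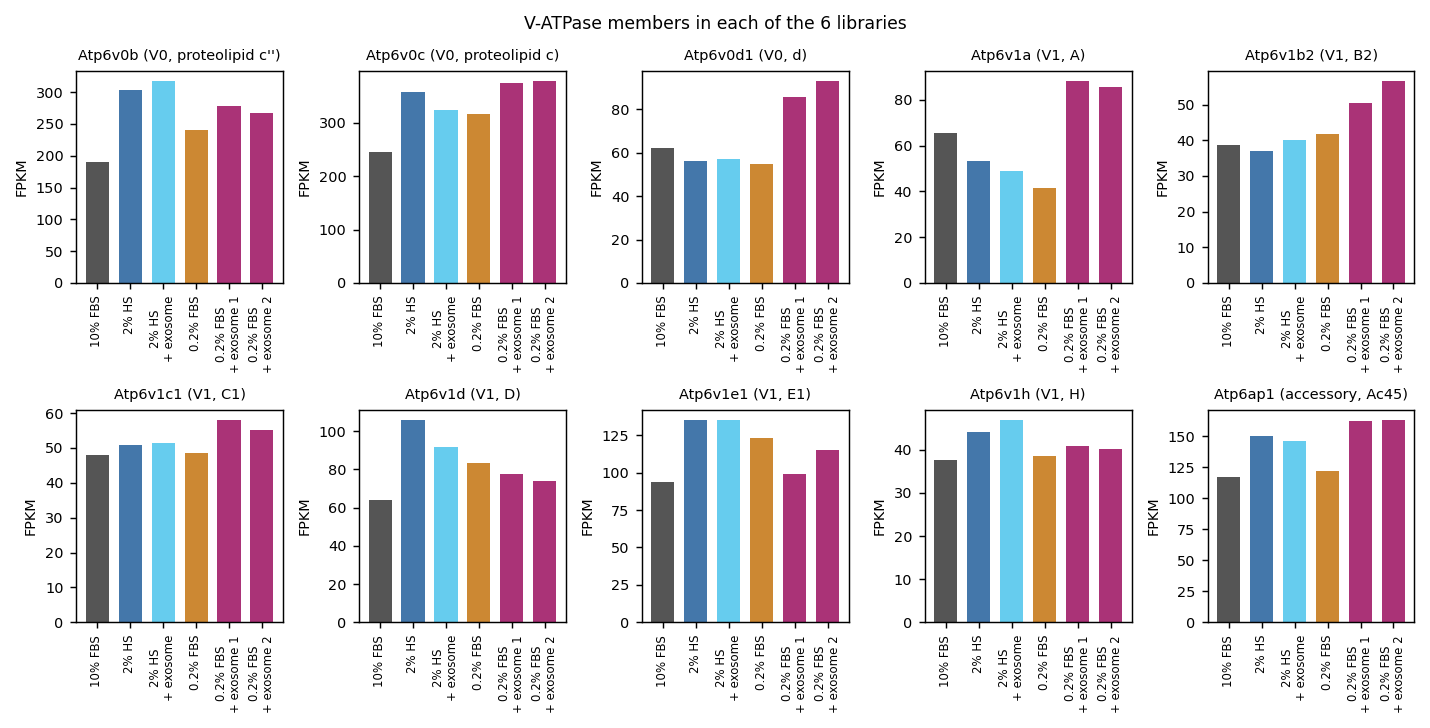
Level of each of the 10 V-ATPase genes in FPKM (vertical axis, from 0, scaled per gene) in the 6 libraries, 1 bar per library with no error bar. Atp6v1a and Atp6v0d1 stand highest in the 2 libraries of 0.2% FBS + exosome, while Atp6v1d and Atp6v1e1 stand highest in the libraries with 2% HS.

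The first question was whether exosomes change the pump in 0.2% FBS. Atp6v1a, the catalytic A subunit, rose 2.12-fold in replicate 1 and 2.06-fold in replicate 2, and Atp6v0d1, which couples the stalk to the proteolipid ring, rose 1.56-fold and 1.70-fold. Atp6v1d and Atp6v1e1, the central and a peripheral stalk subunit, had lower values in each exosome library, by at most 0.31 on the log2 scale. Of the 10 genes, 8 were higher in each exosome library than in 0.2% FBS, where 55.2% of all genes tested were, and 2 were lower in each, against 27.5%. After scaling, 6 were higher and 3 lower in each, against 40.8% and 41.7% of all genes. The median change of the 10 genes was 0.24 (0.25 in replicate 1 and 0.22 in replicate 2), against 0.14 over all genes tested, and scaling brought it to 0.079. With 2 libraries against 1, an exact permutation test has 3 arrangements and cannot pass 0.05.

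The catalytic subunit moved farthest. Atp6v1a (chr16:44085402-44139705, mm10, minus strand) had 41.6 FPKM in 0.2% FBS, and exosomes brought it to 88.3 FPKM in replicate 1 and 85.6 FPKM in replicate 2 (mean 86.9 ± 1.91 SD, n = 2). The other libraries were at 65.7 FPKM in 10% FBS, 53.3 in 2% HS and 49.1 in 2% HS + exosome. Both exosome libraries in 0.2% FBS were therefore above all 4 others, and 0.2% FBS alone was the lowest of the 6. The log2 change was 1.05 ± 0.18 (SE from limma), 1.07 in replicate 1 and 1.02 in replicate 2, with a Benjamini-Hochberg adjusted p of 0.0137 in limma. It was larger than that of 98.5% of the genes tested. Atp6v1a was 1 of 10 members past a log2 change of 1, a threshold that 1.80% of all genes passed upwards. None of the 10 passed −1, which 2.25% did. After scaling its change was 0.89, below that threshold. Of the 6131 stretches of 75 bases in its transcripts, 9 (0.147%) also occur in Gm18990.

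Atp6v0d1 (chr8:105524465-105566047, minus strand) had 54.7 FPKM in 0.2% FBS, against 85.5 and 93.1 FPKM when exosomes were added (mean 89.3 ± 5.41 SD, n = 2). It was at 62.3 FPKM in 10% FBS, 56.4 in 2% HS and 56.9 in 2% HS + exosome. The 2 exosome libraries were above the 4 others, which lay close together. The log2 change was 0.70 ± 0.18 (SE), 0.63 in replicate 1 and 0.76 in replicate 2, with an adjusted p of 0.0424 in limma. After scaling it was 0.54, with an adjusted p of 0.0706. These were the 2 members called higher by limma at an adjusted p under 0.05, as 8.18% of all genes were. No member was called lower, where 4.32% of genes were. No other member was under an unadjusted p of 0.05, where 3378 of the 10729 genes tested were. Neither gene was called in limma when values below 1 FPKM were raised to 1, without the filter on low values, or with 1 exosome effect common to both media (adjusted p from 0.134 to 0.706). Those 3 fits called 0 of all genes, and the change of Atp6v1a in them was 1.06, 1.05 and 0.55.

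The other subunits of the ATP-hydrolysing head and its clamp moved less. Atp6v1b2 (chr8:69088646-69113711, plus strand), the B subunit that alternates with A in the ring, had 41.8 FPKM in 0.2% FBS, against 50.5 and 56.7 FPKM when exosomes were added. Its other libraries were between 37.1 and 40.1 FPKM, all below the exosome libraries. The log2 change was 0.35 ± 0.17 (SE, adjusted p = 0.208 in limma), and 0.19 after scaling. Atp6v1c1 (chr15:38661933-38692446, plus strand), which holds head and stator together and is released when the pump disassembles, had 48.4 FPKM in 0.2% FBS and reached 58.0 and 55.2 FPKM with exosomes. Its other libraries were between 48.0 and 51.3 FPKM. The change was 0.22 ± 0.17 (SE, adjusted p = 0.420), and 0.065 after scaling. Atp6v1h (chr1:5070018-5162529, plus strand), the subunit that holds the free head inactive, had 38.6 FPKM in 0.2% FBS, next to 40.8 and 40.3 FPKM with exosomes. Its change of 0.07 ± 0.16 (SE, adjusted p = 0.820) lay below the median of all genes and was −0.09 after scaling.

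The stalk genes Atp6v1d and Atp6v1e1 had lower values with exosomes, without passing the test. Atp6v1d (chr12:78840725-78861638, minus strand), the central rotor shaft, had 83.2 FPKM in 0.2% FBS, against 77.8 and 73.8 FPKM with exosomes. It was lowest in 10% FBS (64.1 FPKM) and highest in 2% HS (105.9 FPKM, and 91.7 with exosomes). The change in 0.2% FBS was −0.13 ± 0.19 (SE, adjusted p = 0.672 in limma), and −0.29 after scaling. Atp6v1e1 (chr6:120794305-120822793, minus strand), a peripheral stalk subunit, had 123.0 FPKM in 0.2% FBS, against 99.3 and 114.9 FPKM with exosomes. Its range was 94.0 FPKM in 10% FBS to 135.1 in 2% HS, and its 2 exosome libraries in 0.2% FBS lay between these. The change was −0.20 ± 0.21 (SE, adjusted p = 0.554), and −0.36 after scaling.

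The proteolipids of the proton-carrying ring changed little for their high level. Atp6v0c (chr17:24163866-24169702, minus strand) had 316.1 FPKM in 0.2% FBS, against 374 and 379 FPKM with exosomes. It was at 246.1 FPKM in 10% FBS, 357 in 2% HS and 324 in 2% HS + exosome. Its log2 change in 0.2% FBS was 0.25 ± 0.27 (SE, adjusted p = 0.565 in limma), and 0.094 after scaling. Of its 3419 transcript stretches of 75 bases, 316 (9.24%) also occur in the pseudogenes Atp6v0c-ps1 and Atp6v0c-ps2, so some reads fit more than 1 of these genes. Atp6v0b (chr4:117884326-117887333, minus strand), the c'' proteolipid, had 241.1 FPKM in 0.2% FBS, against 278 and 267 FPKM with exosomes, and its lowest level was 189.9 FPKM in 10% FBS. Both lay below the 302 and 318 FPKM of the libraries in 2% HS. The change was 0.17 ± 0.25 (SE, adjusted p = 0.679), and 0.016 after scaling. Atp6ap1 (chrX:74297097-74304721, plus strand), the accessory subunit Ac45 that guides the pump through the secretory pathway, had 121.8 FPKM in 0.2% FBS, against 161.9 and 162.9 FPKM with exosomes. It was at 117.4 FPKM in 10% FBS, 150.3 in 2% HS and 145.9 in 2% HS + exosome. The replicates were nearly equal (log2 changes of 0.41 and 0.42), but the limma error drawn from genes of like level gave an adjusted p of 0.218. After scaling the change of Atp6ap1 was 0.25.

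Set against every other library, 6 of the 10 genes (Atp6v0c, Atp6v0d1, Atp6v1a, Atp6v1b2, Atp6v1c1 and Atp6ap1) had both libraries of 0.2% FBS + exosome above all 4 others, where 27.8% of all genes tested did. After scaling 3 of them did (Atp6v0d1, Atp6v1a and Atp6v1b2), where 16.4% of all genes did. Opposite-strand genes overlap Atp6v0b (Gm12841), Atp6v1b2 (Slc18a1), Atp6v1e1 (Slc25a18) and Atp6v1h (Rgs20) in GENCODE vM21. On the same strand Gm25193 overlaps Atp6v1e1. The libraries were made with a stranded kit, but the strand setting of the FPKM calculation is not given in the sources used here.

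**Figure D2:**
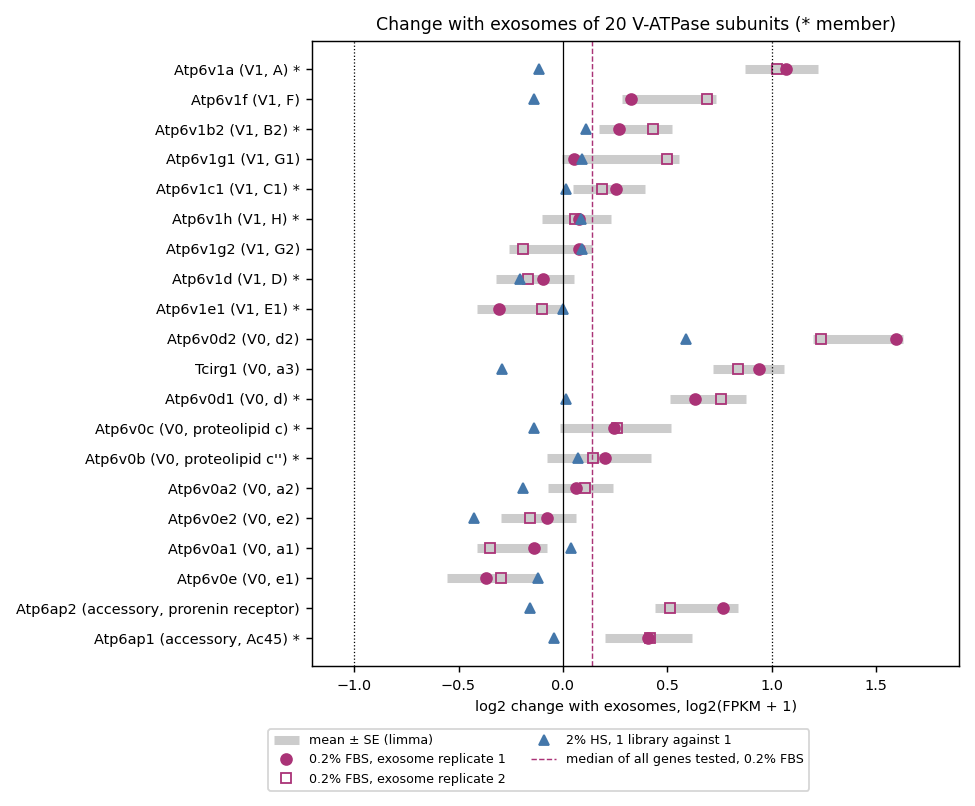
Log2 change with exosomes, on the log2(FPKM + 1) scale, of the 10 genes described (asterisk) and of 10 further V-ATPase subunits, grouped by V1, V0 and accessory subunits. Circles and squares are the 2 exosome replicates in 0.2% FBS, grey bars are their mean ± SE from limma, triangles are 2% HS, and the dashed line is the median of all genes tested in 0.2% FBS. Atp6v1a, Atp6v0d1, Tcirg1 and Atp6v0d2 lie farthest to the right, and the triangles of all but Atp6v0d2 lie between −0.43 and 0.11.

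The addition of exosomes in 2% HS was compared in 1 library against 1, which has no replicate check. None of the 10 genes passed a log2 change of 1 in either direction, which 0.652% of all genes did. The changes ran from −0.21 (Atp6v1d) to 0.11 (Atp6v1b2), with a median of 0.006. Of the 10 genes 5 were higher and 5 lower, where 41.3% and 58.7% of all genes were. Atp6v1a changed by −0.12 and Atp6v0d1 by 0.01. The SD across the 10 genes was 0.10 in 2% HS and 0.37 in 0.2% FBS, and across all genes tested it was 0.25 and 0.45. The difference between the exosome changes of the 2 media was tested in limma with the spread of the replicated condition. It was 1.16 ± 0.27 (SE) for Atp6v1a, with an adjusted p of 0.0774, and 0.68 ± 0.28 for Atp6v0d1, with an adjusted p of 0.233. None of the 10 genes was called for this difference, against 1.17% of all genes, and 2 were below an unadjusted p of 0.05, as 19.5% of all genes were. The median difference of the 10 was 0.22, against 0.18 over all genes tested, and after scaling 0.029 against 0.0055.

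Relative to growing cells, some pump subunits were lower and others higher in the media of low serum. In 0.2% FBS without exosomes Atp6v1a was lower than in 10% FBS by a log2 difference of −0.65 and Atp6v0d1 by −0.18. Atp6v1e1 (0.38), Atp6v1d (0.37), Atp6v0c (0.36) and Atp6v0b (0.34) were higher, and the remaining 4 differed by 0.01 to 0.11. In 2% HS the same stalk and proteolipid genes were higher by more, with 0.72 for Atp6v1d, 0.67 for Atp6v0b, 0.54 for Atp6v0c and 0.52 for Atp6v1e1, and Atp6v1a was at −0.30. These are differences of 1 library and 1 library. None of the 10 passed a log2 difference of 1 in 0.2% FBS, where 2.48% of all genes did, or in 2% HS, where 2.31% did. The lower Atp6v1a in 0.2% FBS and its rise with exosomes rest on the same 0.2% FBS library, so they are not separate observations.

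With exosomes in 0.2% FBS, each of the 10 genes was above its level in 10% FBS in both replicates, where 42.0% of all genes tested were. After scaling 9 of 10 were, where 29.4% of all genes were. The mean log2 differences lay between 0.10 (Atp6v1h) and 0.61 (Atp6v0c), with 0.52 for Atp6v0b, 0.51 for Atp6v0d1 and 0.40 for Atp6v1a. None passed 1, as 0.606% of all genes did, and none was called in limma, where 0.0652% of genes were and the adjusted p of the 10 genes ran from 0.342 to 0.865. At an unadjusted p under 0.05, 3 of the 10 passed, where 11.5% of all genes did. The summed FPKM of the 10 genes was 964 in 10% FBS, 1110 in 0.2% FBS, 1314 and 1328 with exosomes in 0.2% FBS, and 1293 and 1259 in 2% HS without and with exosomes.

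**Figure D3:**
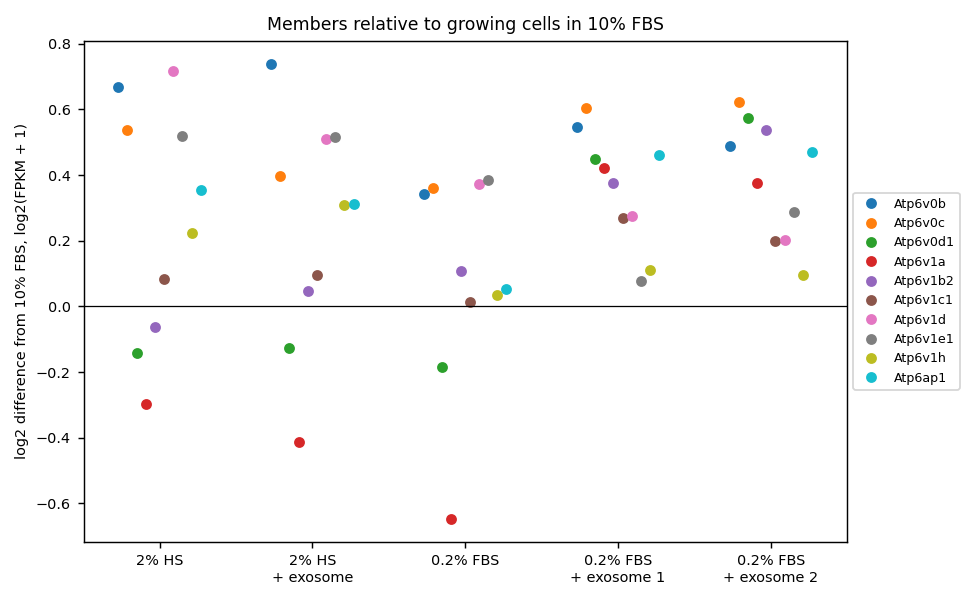
Log2 difference of each of the 10 genes from its level in 10% FBS, on the log2(FPKM + 1) scale, in the 5 other libraries, 1 coloured point per gene and no error bar. Atp6v1a lies lowest in the first 3 libraries and at −0.65 in 0.2% FBS, and all 10 genes lie above 0 in both libraries of 0.2% FBS + exosome.

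Because the subunits changed unequally, their ratios differed between libraries. The FPKM ratio of the A to the B subunit (Atp6v1a to Atp6v1b2), which occur in equal number in the ring, was 0.994 in 0.2% FBS and 1.75 and 1.51 with exosomes. It was 1.70 in 10% FBS, 1.44 in 2% HS and 1.23 in 2% HS + exosome. The ratio of Atp6v1a to the stalk gene Atp6v1e1 was 0.338 in 0.2% FBS and 0.889 and 0.745 with exosomes. It was 0.698 in 10% FBS and 0.394 and 0.364 in 2% HS without and with exosomes, so that growing cells and exosome-treated cells in 0.2% FBS stood apart from the 3 other libraries. The ratio of Atp6v0d1 to Atp6v1d behaved alike, at 0.973 in 10% FBS, 1.10 and 1.26 in 0.2% FBS + exosome, and 0.533 to 0.658 in the 3 other libraries. A ratio within a library is not moved by scaling, and it shows unequal change without saying which gene changed.

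The other 15 listed subunits were read in the same way, and 10 of them reached a mean of 1 FPKM. Of these, 6 were higher and 3 lower in each exosome library than in 0.2% FBS (4 and 5 after scaling), with a median change of 0.18 (0.027 after scaling), and limma called 2 higher and none lower (3 and 0 at an unadjusted p under 0.05). Over all genes tested, 55.2% were higher and 27.5% lower in each, and 8.18% were called higher. At an unadjusted p under 0.05 in limma, 2415 of the 10729 genes were higher and 963 lower. Tcirg1, the a3 isoform of the subunit that forms the proton channel beside the ring, had 33.6 FPKM in 0.2% FBS, against 65.4 and 61.0 FPKM with exosomes (log2 change 0.89 ± 0.17 SE, adjusted p = 0.0194 in limma). It was at 52.9 FPKM in 10% FBS, 50.5 in 2% HS and 41.0 in 2% HS + exosome, the same order of libraries as Atp6v1a. Atp6v0d2, the second d isoform, had 0.317 FPKM in 0.2% FBS, against 2.98 and 2.1 FPKM with exosomes (log2 change 1.42 ± 0.22 SE, adjusted p = 0.0100). In 2% HS exosomes took it from 1.25 to 2.40 FPKM, a change of 0.59, while the other 9 of these subunits changed by −0.43 to 0.09. It made up 0.577% to 4.04% of the summed d isoforms. Atp6ap2, the accessory prorenin receptor, had 62.4 FPKM in 0.2% FBS, against 106.8 and 89.6 FPKM with exosomes (0.64, adjusted p = 0.0691).

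Atp6v1f, the shaft partner of Atp6v1d, changed by 0.51 (0.33 and 0.69, adjusted p = 0.165 in limma). Atp6v1g1, which pairs with the E subunit, changed by 0.28 (0.05 and 0.50, adjusted p = 0.545). Its mean level was 253 FPKM, and in 10% FBS it was above the proteolipid gene Atp6v0b (237 against 190 FPKM). The V0 genes Atp6v0a2 (0.08), Atp6v0e2 (−0.12), Atp6v0a1 (−0.24) and Atp6v0e (−0.33), and the peripheral stalk gene Atp6v1g2 (−0.06), had adjusted p-values from 0.343 to 0.875. Among the 3 a isoforms the share of Tcirg1 in the summed FPKM was 46.4% in 0.2% FBS and 63.7% and 63.6% with exosomes. It was 61.5% in 10% FBS, 57.5% in 2% HS and 53.2% in 2% HS + exosome. The 5 subunits with a mean below 1 FPKM were Atp6v0a4, Atp6v1b1, Atp6v1c2, Atp6v1e2 and Atp6v1g3, isoforms known mainly from kidney, testis and other specialised cells, and Atp6v1g3 was listed at 0 in every library.

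**Figure D4:**
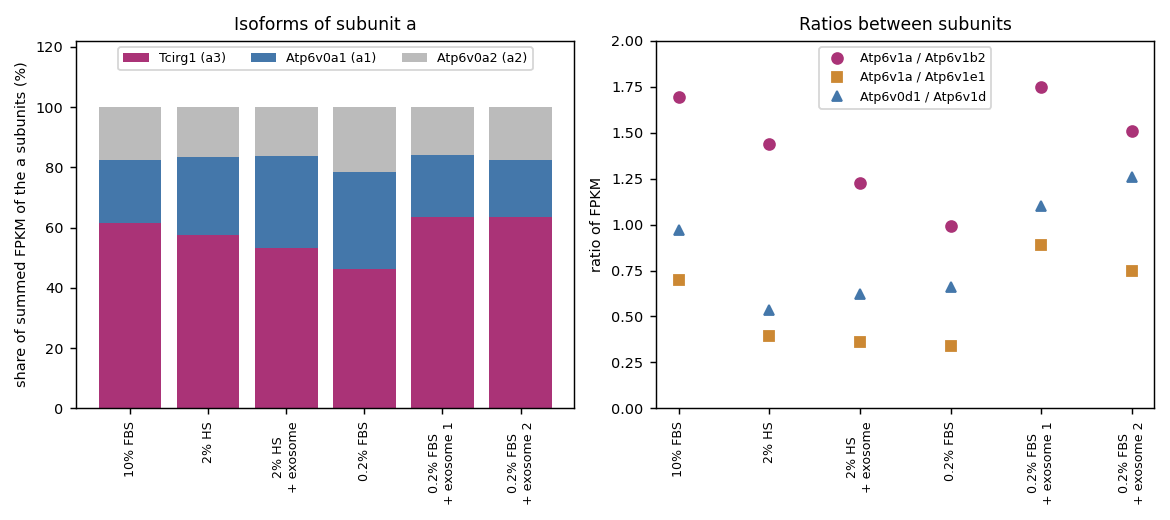
Left, share of each a isoform in the summed FPKM of Tcirg1, Atp6v0a1 and Atp6v0a2, in percent, for the 6 libraries. Right, FPKM ratios of Atp6v1a to Atp6v1b2 (circles), Atp6v1a to Atp6v1e1 (squares) and Atp6v0d1 to Atp6v1d (triangles), 1 point per library with no error bar. The Tcirg1 share and the 2 ratios with Atp6v1a are lowest in 0.2% FBS, and all 3 ratios are higher in each exosome library in 0.2% FBS than in 0.2% FBS alone.

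Tcirg1 and Atp6v0d2 are also known from osteoclasts and macrophages, so markers of these cells were read beside them. Of 12 such markers, 10 stayed below 1 FPKM in every library, and Dcstamp, Calcr and Emr1 (Adgre1) were listed at 0 in all 6. Their summed level was 5.07 to 6.30 FPKM in the 4 other libraries and 8.11 and 9.12 FPKM in 0.2% FBS + exosome. Most of it was Cd14 and Cd68. Cd14 had 2.87 FPKM in 0.2% FBS against 5.33 and 6.13 FPKM with exosomes (log2 change 0.80, adjusted p = 0.0267 in limma). It was the 1 marker called, where 8.18% of all genes tested were called higher. Cd68 had 1.63 FPKM in 0.2% FBS against 1.95 and 2.00 FPKM with exosomes. The level of Csf1r was at most 0.0884 FPKM in these 3 libraries, and that of Ptprc at most 0.0119. Ctsk went from 0.098 FPKM in 0.2% FBS to 0.369 and 0.342 with exosomes. Mmp9 went from 0.127 to 0.210 and 0.358, and Acp5 from 0.047 to 0.098 and 0.154. In the other direction, Itgam went from 0.211 to 0.107 and 0.033 FPKM, and Ocstamp from 0.0154 to 0. The muscle markers had a median change of −0.87 over 8 genes. In each exosome library 6 were lower and 2 higher, where 27.5% and 55.2% of all genes tested were. limma called Tmem8c lower and Myf5 (0.96) higher, where 4.32% and 8.18% of all genes were. Past −1, a threshold that 2.25% of all genes passed, were Ckm (−1.13), Myh3 (−1.58) and Tmem8c, the muscle fusion gene also called Mymk (−1.37). Their part in the changes of the pump genes was not tested.

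The lists around the pump are given beside the same shares of all genes, 55.2% higher and 27.5% lower in each exosome library and 8.18% called higher by limma. After scaling 40.8% were higher and 41.7% lower in each. Of 22 lysosomal hydrolases and membrane proteins all were higher in each exosome library in 0.2% FBS (20 after scaling), with a median of 0.66 against 0.24 for the 10 pump genes, and limma called 9 of them higher. Among those past 1 were Gpnmb (1.77) and the protease Ctsb (1.19). Of 7 expressed genes among the MiT/TFE factors and their regulators, 6 were higher in each (5 after scaling), with a median of 0.64. The 4 called by limma, named after their values were seen, were Tfe3 (0.78, adjusted p = 0.0307), Zkscan3 (0.72), Fnip2 (0.72) and Flcn (0.64), while Tfeb was at −0.03. Of 12 lysosomal ion carriers 6 were higher and 3 lower in each (5 and 6 after scaling), with a median of 0.07 (−0.076 after scaling), and the 2 called were the chloride-proton exchanger Clcn7 (0.82) and the calcium channel Mcoln1 (0.81). Of 11 genes of the lysosomal mTORC1 platform 5 were higher and 3 lower in each (4 and 5 after scaling), and limma called 1, Rragc (0.71, adjusted p = 0.0343). At an unadjusted p under 0.05, 2 were lower, Rptor (−0.54) and Mtor (−0.40), where 963 of the 10729 genes tested were. Of 13 genes for assembly and regulation of the pump, 3 were higher and 5 lower in each (3 and 9 after scaling). Their median was −0.08 (−0.19 after scaling), and none was called in limma. Oxr1 (1 higher) and Vma21 (1 lower) were under an unadjusted p of 0.05, beside 2415 higher and 963 lower of the 10729 genes tested. In 2% HS the medians of all these lists lay between −0.11 and 0.04.

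**Figure D5:**
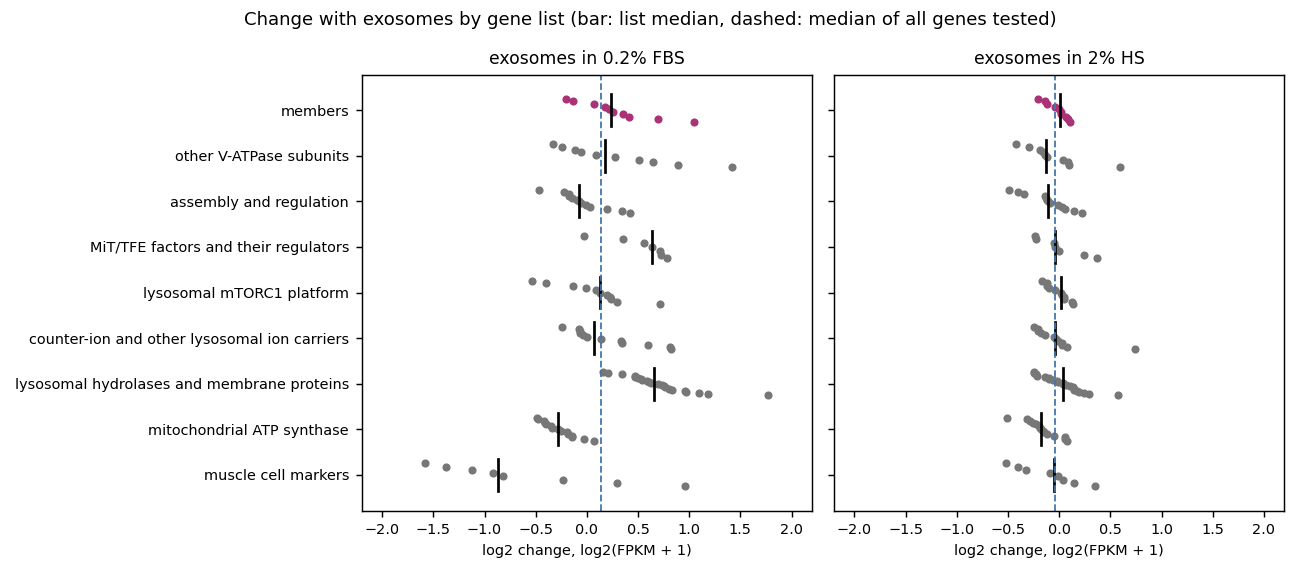
Log2 change with exosomes, on the log2(FPKM + 1) scale, in 0.2% FBS (left, mean of 2 libraries against 1) and in 2% HS (right, 1 library against 1) for the 10 pump genes (top, coloured) and 8 gene lists, 1 point per gene whose mean reached 1 FPKM. In 0.2% FBS the lysosomal hydrolases have a median of 0.66 and the muscle markers one of −0.87, while in 2% HS the list medians lie between −0.17 and 0.04, beside −0.04 for all genes tested (dashed line).

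Members with and without the E-box in the promoter window were set side by side. Atp6v0b, Atp6v0d1 and Atp6v1a, whose windows are printed above, changed by 0.17, 0.70 and 1.05 with exosomes in 0.2% FBS. The 4 members with a window but no CACGTG changed by 0.25 (Atp6v0c), −0.13 (Atp6v1d), −0.20 (Atp6v1e1) and 0.41 (Atp6ap1). Over all expressed genes with a window the median change was 0.17 with TCACGTG and 0.14 without it, and 0.20 with TCACGTGA and 0.14 without it. Of 7 other expressed subunits with a window, only Atp6v0e held the motif, just inside the transcript, and its change was −0.33. After scaling, Atp6v0b, Atp6v0d1 and Atp6v1a changed by 0.016, 0.54 and 0.89 in 0.2% FBS. In 2% HS they changed by 0.07, 0.01 and −0.12. The medians over all genes in 2% HS were −0.032 with TCACGTG and −0.034 without it, and −0.048 with TCACGTGA and −0.034 without it. A link between the motif and the changes was not tested.

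Across the 6 libraries the 10 genes did not share 1 profile. Atp6ap1 was most like the mean of the other 9 (Pearson r = 0.989 of log2 values), followed by Atp6v0c (0.902) and Atp6v1c1 (0.896), while Atp6v1a (0.33), Atp6v1d (0.142) and Atp6v1e1 (0.0613) were least like it. Of 5857 genes outside the pump whose mean reached 10 FPKM, the genes with a profile closest to the mean of the 10 were Grina (r = 0.998), Slc35c2 (0.997), Gpaa1 (0.996), Tmem115 (0.992) and Tex264 (0.989). The next were Fam3a, C1ra, Tmem43, Glt25d1 and Lgals3bp, with r from 0.987 to 0.978. These are descriptions over 6 points that include the 2 replicates, share library depth and scaling, and were picked as the highest among all those genes.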

How the data were processed

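RNA of C2C12 cells was analysed in 6 libraries of 5 conditions, grouped by the treatment given in the labels. The authors trimmed the 75 bp single-end reads with cutadapt 1.9.1, mapped them to mm10 with TopHat2 2.1.0 and estimated expression with Cufflinks. The deposited unit is FPKM, given for each gene name in each library. It is already divided by transcript length and depth, so a shift in a few abundant genes moves all others. The annotation behind the values is not given in the sources used here.

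The table has 20950 rows. The 5 that repeat a name were left out. Values were compared as log2(FPKM + 1), which understates changes of low genes. limma 3.58.1 in R 4.3.3 fitted 1 mean per condition with a mean-variance trend to all 6 libraries, with Benjamini-Hochberg adjustment over the 10729 genes whose mean reached 1 FPKM. Its 1 residual degree of freedom comes from 0.2% FBS + exosome, and single libraries are assumed to vary alike. Differences of 1 library and 1 library are given without a p, although this fit could give one under that assumption. Without counts, no counting interval was computed, and depth was estimated from 2442 genes, of whose low values 74.3% to 77.0% lay near whole reads. The fit was tested on simulated data.

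All 10 members are named, as are other subunits with a mean of at least 1 FPKM, genes of the context lists past a log2 change of 1 and the 10 most alike genes. An item of the context lists is not reported here. Other named genes were chosen after their values were seen. The members and lists were chosen with earlier results of these data known. Clcn4, Adgre1 and Mymk were matched through older symbols. Positions come from GENCODE vM21 (mm10) and promoter windows from RefSeq (GRCm38.p6). Alternatives were a 75th percentile scaling, a pseudocount of 0.1, values below 1 raised to 1, no filter, a common exosome effect and leaving out each exosome replicate.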

Additional observations from a re-analysis of the deposited data

How the results depend on the processing

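With the 75th percentile made equal in all libraries, the median of the 10 genes became 0.079 with exosomes in 0.2% FBS, 0.044 in 2% HS, 0.14 for 0.2% FBS and 0.33 for 2% HS against 10% FBS, 0.33 for 0.2% FBS + exosome against 10% FBS, and 0.029 for the difference between media. No member then passed a log2 change of 1 (0 against 1), and limma called 1 member, Atp6v1a. Atp6v1h reversed to −0.088 with exosomes in 0.2% FBS, and the differences between media reversed to −0.094 for Atp6v0b and −0.12 for Atp6v1d. The median difference between media was 0.25 without exosome replicate 1 and 0.20 without replicate 2. That of 0.2% FBS + exosome against 10% FBS was 0.42 without replicate 1 and 0.40 without replicate 2. limma called 0 members with values below 1 raised to 1, 0 with no filter and 0 with a common exosome effect. The fit as reported called 1342 genes, with 3378 at an unadjusted p under 0.05. Those alternatives called 0 of all genes, with 2929, 3121 and 708 at an unadjusted p under 0.05. In the first, 77 genes had no variance between replicates, and in the second 1087. Over the alternatives Atp6v1a ranged from 0.55 to 1.07 (adjusted p 0.0115 to 0.706) and Atp6v0d1 from 0.40 to 0.76 (adjusted p 0.0395 to 0.706). The causes were not tested. No paired analysis was possible because each comparison had 1 library on at least 1 side. The spread between control cultures is unknown, since every medium had 1 library without added exosomes.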

Other observations

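The mitochondrial ATP synthase, the rotary relative of the pump that makes ATP from a proton gradient, had lower values with exosomes. Of its 15 subunits 0 were higher and 11 lower in each library of 0.2% FBS + exosome than in 0.2% FBS, where 55.2% and 27.5% of all genes tested were, and 14 were lower after scaling, where 41.7% were. The median change was −0.28 (−0.44 after scaling), from −0.49 (Atp5k) to 0.07 (Atp5g2, −0.086 after scaling). In 2% HS the median was −0.17. limma called none of the 15, where it called 1342 of the 10729 genes tested. At an unadjusted p under 0.05 there were 0 of the 15, against 3378 of all genes, so the changes are given as values. In 0.2% FBS without exosomes the median stood 0.22 above 10% FBS, and in 2% HS 0.28 above it, both differences of 1 library and 1 library.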
